A study of Mus musculus with 10 samples.

Results

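The genes described here encode the cytokine IL-10, the cytokine subunit EBI3, the receptors CTLA-4, CD28 and LAG-3, and 5 ligands of the B7 family, in naive B cells and plasma cells of the mouse. The 10 members (Il10, Ebi3, Ctla4, Cd28, Lag3, Icosl, Cd80, Cd86, Cd274 and Pdcd1lg2) were taken by symbol from 26599 genes in the RNA tables. They were picked because Il10, Ctla4 and Icosl differed widely between the libraries compared here, so those differences are given as a description and no test rests on them. RNA was sequenced in 1 library of wild-type C57BL/6 naive B cells, sorted from spleen as CD23+ IgD+ cells, and 1 library of wild-type C57BL/6 plasma cells. The labels of the plasma library conflict: the source field names in vitro activation, the growth protocol a culture of CD23-selected splenocytes, and the extraction protocol a sort of CD138+ B220- IgD- CD4- CD8- Gr1- Ter119- bone marrow cells. Neither the age and sex of the animals nor any pooling of mice is stated in the sources used here. The other 8 of the 10 samples of the series (ATAC-seq, chromosome contacts and ChIP-seq) were not used here.

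T cells respond to antigen fully only when CD28 on their surface binds CD80 or CD86 on the presenting cell. CTLA-4 competes for the same ligands and restrains the response. ICOSL, a ligand that naive B cells carry, engages ICOS on follicular helper T cells. PD-L1 (Cd274) and PD-L2 (Pdcd1lg2) engage the inhibitory receptor PD-1, and LAG-3 is an inhibitory receptor that binds MHC class II. IL-10 dampens macrophage and T cell responses, and B cells and plasma cells that make it are known to limit inflammation in mouse models. EBI3 pairs with other subunits to form the cytokines IL-27 and IL-35.

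The naive library held 37.0 M estimated counts and the plasma library 43.5 M. Levels are in TPM, a unit that corrects for transcript length and library depth. Immunoglobulin genes took 5.03% of TPM in the naive library and 34.8% in the plasma library. Ratios are log2 of plasma over naive TPM with 1 TPM added to each. They were centred on the median of those 7495 genes that reached 5 TPM in each library, which removed a shift of -0.99. Without centring, the median over genes with at least 5 TPM in 1 library was -1.22. It was still -0.79 when immunoglobulin and mitochondrial transcripts were also left out. Centring treats the median gene as unchanged, which was not tested. Directions of ratios are relative to the removed shift of -0.99, whereas TPM levels and sums of TPM are not centred. Most markers of the labelled types differed as the labels say: 8 of 9 naive B cell markers were at least 2-fold lower in plasma cells and 7 of 9 plasma cell markers at 5 TPM or more at least 2-fold higher. Sdc1, which encodes CD138, the marker of the labelled plasma cell sort, was not among these: it was at 11.1 TPM in the naive and 5.38 TPM in the plasma library, a centred ratio of 0.06. Slamf7 was not called either, at 0.93, and Tnfrsf17 stayed below 5 TPM (2.24 and 1.68 TPM). Xist was at 0.383 TPM in the naive and 128 TPM in the plasma library and Eif2s3y at 104 and 0 TPM, so transcripts linked to sex differed along with cell type. None of the 10 members lies on a sex chromosome, which does not settle whether their levels differ with sex. Differences by sex and by cell type cannot be told apart with these libraries. With 1 library per cell type no difference has a replicate check. The 95% intervals are exact and cover counting error alone, as reads that carry no molecular identifiers may be copies of 1 molecule.

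Both cytokine genes and the receptor genes Ctla4 and Lag3 were far higher in plasma cells, while Icosl, Pdcd1lg2 and Cd86 were lower. Of the 10 members, 9 had at least 5 TPM in 1 library, the level needed for a call. Among these, 5 stood 2-fold or more above their naive level (Il10, Ctla4, Lag3, Ebi3 and Cd80), 3 were at least 2-fold lower (Icosl, Pdcd1lg2 and Cd86), and Cd274 lay between. Over all 10219 genes at that level, 16.0% were called higher and 22.1% lower, 38.1% in either direction. The members were chosen on this contrast, so nothing is read from their share. The split of called genes depends on the scaling: it was 1634 higher and 2257 lower as centred, 792 and 5890 without centring, 2534 and 1724 on the count scale with TMM factors, and 1042 and 4425 without immunoglobulin and mitochondrial transcripts. All 8 called members kept their direction and call under each of these scalings.

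**Figure D1:**
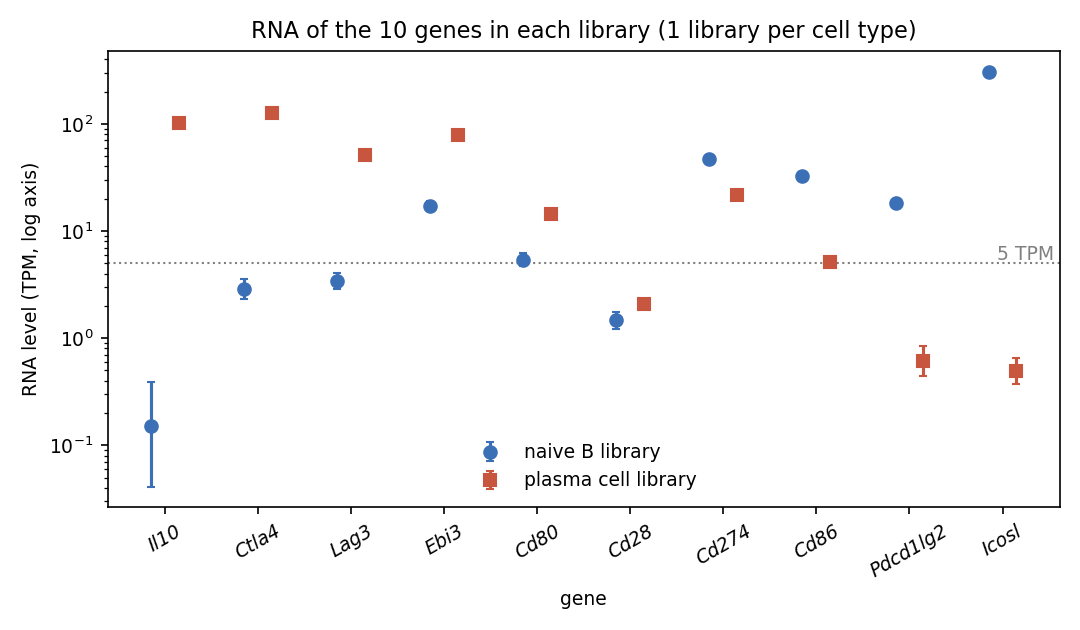
RNA level in TPM (log axis) of each member in the naive B library (circles) and the plasma cell library (squares), ordered by ratio, with exact 95% Poisson intervals on the counts. Il10 and Ctla4 stand above 100 TPM in plasma cells and under 5 TPM (dotted line) in naive B cells, and Icosl goes the other way.

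Il10 was nearly silent in the naive library and abundant in the plasma library. It had 4 estimated counts in naive B cells (Poisson interval 1.09 to 10.2), or 0.151 TPM, and 5132 in plasma cells (4993 to 5274), or 103 TPM. The centred log2 ratio was 7.48, a 178-fold difference on the TPM + 1 scale, and 90.1-fold without centring. The added 1 TPM understates it, because the naive level lay below 1 TPM. Without it the centred log2 ratio was 10.44, and the 4 naive counts leave an interval of 9.08 to 12.32. Il10 had the second highest ratio of the 10219 genes. The genes nearest to it in the pair of log2 levels, among 10083 genes without immunoglobulin genes, were Xist at a distance of 0.41 log2 units, the cell cycle inhibitor gene Cdkn2a at 0.45 and the growth factor gene Vegfa at 0.88. Likeness over 2 libraries rests on 2 values per gene only.

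Ebi3 was already expressed in naive B cells. It had 406 estimated counts and 17.2 TPM in the naive library, against 3524 counts and 79.3 TPM in plasma cells. The centred log2 ratio was 3.12. Without the added TPM it was 3.23, with an interval of 3.09 to 3.39. Il12a, which encodes the p35 subunit of IL-12 and IL-35, was lower in plasma cells, at 33.6 TPM in the naive and 7.08 TPM in the plasma library, a centred ratio of -1.11. That call was lost with TMM factors, where the ratio was -0.80, and with a pseudocount of 5 TPM. Il27, which encodes the p28 subunit of IL-27, was under 1 TPM in both libraries (0.204 and 0.295 TPM). Il12b, the p40 subunit of IL-12 and IL-23, had 2 counts in naive B cells and was listed at 0 in plasma cells.

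Ctla4 had the highest level of the members in plasma cells. It had 87 estimated counts in naive B cells (69.7 to 107), or 2.87 TPM, and 7098 in plasma cells (6934 to 7265), or 127 TPM. The centred log2 ratio was 6.03, a 65.4-fold difference, and the rank was 13 from the top of the 10219 genes. With no TPM added the interval of the ratio was 6.19 to 6.82. Genes with the nearest pair of levels were Fam46c at a distance of 0.65 log2 units, the survival gene Bcl2l1 at 0.74 and the alkaline phosphatase gene Alpl at 0.76.

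Both annotated forms of the Ctla4 transcript were higher in plasma cells. Ctla4-001 has 4 exons, and Ctla4-002 skips exon 3, whose 110 bases lie at chr1:60913219-60913328 on the plus strand (GENCODE M21, GRCm38). Exon 3 codes for the membrane-spanning part, and the form that skips it is known as soluble CTLA-4. The annotated forms also differ at both ends. Ctla4-002 starts at 60909171 against 60909025 for Ctla4-001, and ends at 60914769 against 60915832. The 3 junctions around exon 3 are shown, each with 18 bases on either side and exon 3 in capitals:
Ctla4-001, exon 2 into exon 3: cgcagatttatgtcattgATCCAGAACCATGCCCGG
Ctla4-001, exon 3 into exon 4: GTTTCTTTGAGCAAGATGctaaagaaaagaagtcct
Ctla4-002, exon 2 into exon 4: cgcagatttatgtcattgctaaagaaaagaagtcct
The full form, Ctla4-001, was at 1.91 TPM in the naive and 81.5 TPM in the plasma library. Ctla4-002 was at 0.953 and 45.2 TPM. The skipping form held 13.0% of the estimated counts of the gene in naive B cells (exact Clopper-Pearson interval 6.48 to 21.5%) and 14.2% in plasma cells (13.4 to 15.1%), so a difference in its share was not detectable at this depth. Its share of TPM was higher, 33.2% and 35.6%, because its annotated length is 614 bases against 1933. Reads that fit both forms are divided by estimation, and the binomial intervals do not cover that step. The division also rests on the annotated ends, so these shares do not measure skipping of exon 3 alone.

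**Figure D2:**
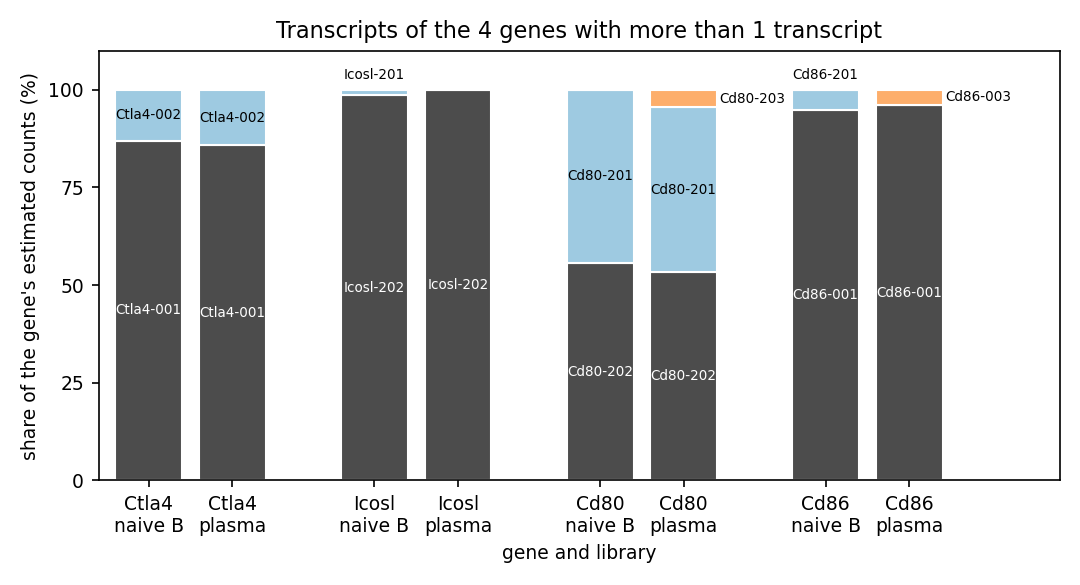
Share of each gene's estimated counts (%) by transcript, for the 4 members with more than 1 transcript, in each library. The dark bars are the transcript with most counts in naive B cells. Ctla4-002 holds 13.0% in the naive and 14.2% in the plasma library. The transcript of Cd80 with the shorter coding sequence has estimated counts in plasma cells only.

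Lag3 followed Ctla4 in direction. It had 141 estimated counts and 3.44 TPM in naive B cells, and 3920 counts and 50.7 TPM in plasma cells. The centred log2 ratio was 4.53. Without the added TPM it was 4.91, with an interval of 4.67 to 5.17. Its naive level could not be told from that of Ctla4 by counting error.

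Cd28 stayed low in both libraries. It had 132 estimated counts and 1.46 TPM in naive B cells, and 353 counts and 2.07 TPM in plasma cells. Both levels are under 5 TPM, so no call was made. The ratio was 1.31 as centred and 0.32 without centring. Cd28 and Ctla4 are adjacent protein-coding genes on chromosome 1, and encode receptors for the same ligands. Ctla4 stood at 1.96 times the level of Cd28 in the naive library, and at 61.1 times in the plasma library.

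**Figure D3:**
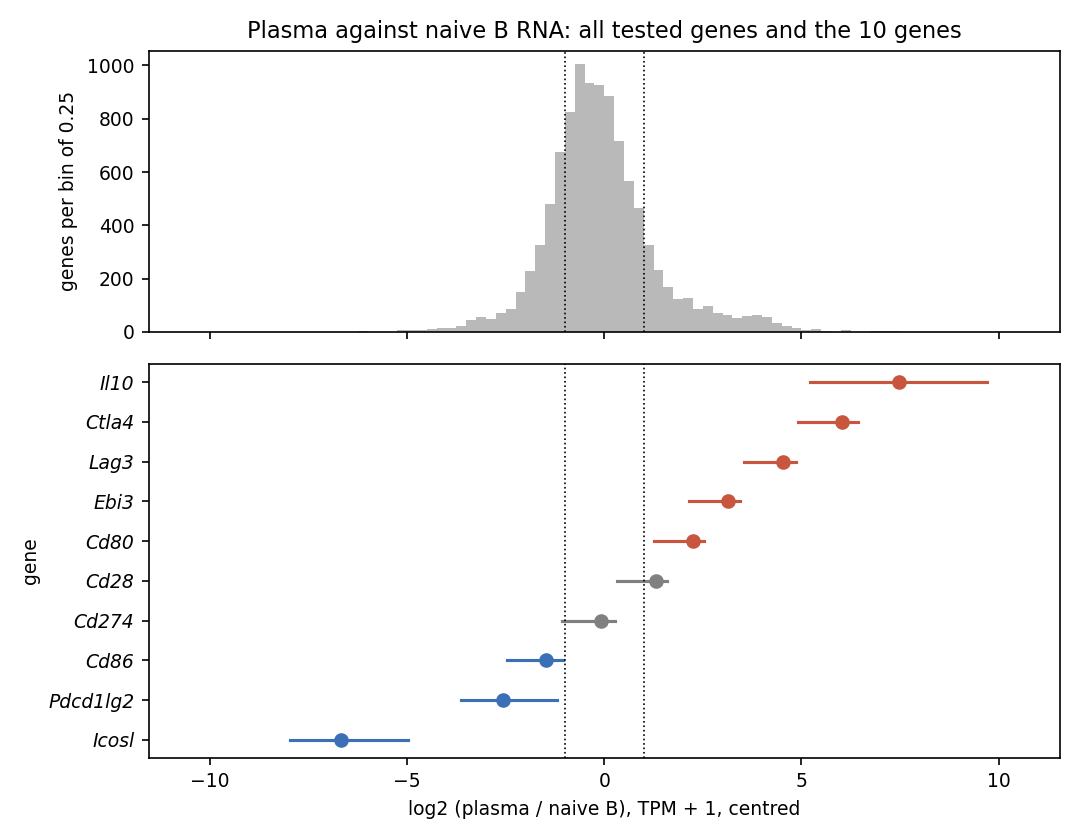
Top, centred log2 ratio of plasma over naive B TPM + 1 for the 10219 genes with at least 5 TPM in 1 library, in bins of 0.25. Bottom, the same ratio for the 10 members (points) with the lowest and highest value over 6 other settings (lines), coloured red for higher, blue for lower and grey for not called, with dotted lines at 2-fold. Il10 reaches 7.48 and Icosl -6.68, and the line of Cd274 crosses 0.

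Icosl was the most abundant member in naive B cells and, with Pdcd1lg2, among the least abundant in plasma cells. It had 16906 estimated counts in naive B cells (16652 to 17163), or 303 TPM, and 53 in plasma cells (39.7 to 69.3), or 0.494 TPM. The centred log2 ratio was -6.68, a 103-fold lower level in plasma cells. Without the added TPM it was -8.23, with an interval of -8.64 to -7.84. In naive B cells 98.7% of its counts fell on Icosl-202 and 1.32% on Icosl-201. All 53 estimated plasma counts fell on Icosl-202. Icosl had the second lowest ratio of the 10219 genes. Genes with the nearest pair of levels were B3gnt5, a glycosyltransferase gene, at a distance of 1.00 log2 units, A430078G23Rik at 1.12 and March1 at 1.13. March1 encodes a ubiquitin ligase that removes CD86 and MHC class II from the cell surface.

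The start regions of Ctla4 and Icosl were unlike in base composition. RefSeq sequences on GRCm38, from 250 bases before to 50 after the annotated start, were found for 6 of the 10 members (Cd274, Cd80, Ctla4, Ebi3, Icosl and Pdcd1lg2). They were searched on both strands for TATAAA, for the AP-1 motif TGANTCA, and for AGNGAAAG and GAAAGT, overlapping letters of sites that Blimp-1 and IRF proteins are known to bind. Matches are in capitals:
Ctla4, chr1:60908775-60909074, plus strand: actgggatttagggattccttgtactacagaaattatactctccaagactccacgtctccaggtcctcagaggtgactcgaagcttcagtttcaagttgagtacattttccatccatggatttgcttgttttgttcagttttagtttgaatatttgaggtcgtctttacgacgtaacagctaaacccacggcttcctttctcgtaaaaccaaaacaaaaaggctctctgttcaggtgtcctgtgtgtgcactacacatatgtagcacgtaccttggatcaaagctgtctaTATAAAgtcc
Icosl, chr10:78069118-78069417, plus strand: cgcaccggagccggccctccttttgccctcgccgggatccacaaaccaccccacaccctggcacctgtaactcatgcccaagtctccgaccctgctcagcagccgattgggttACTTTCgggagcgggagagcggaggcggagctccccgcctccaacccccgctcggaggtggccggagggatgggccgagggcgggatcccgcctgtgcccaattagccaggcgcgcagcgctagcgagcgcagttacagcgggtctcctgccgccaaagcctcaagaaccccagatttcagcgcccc
The Ctla4 region had 42.0% G and C and 8 CpG dinucleotides, and the Icosl region had 68.0% and 26. The median over all 32851 promoters was 52.7% and 7. Of the genes higher in plasma cells, Ebi3 had 56.3% and 2, and Cd80 49.7% and 3. Pdcd1lg2, a lower gene, had 46.0% and 3, and Cd274, which was not called, 52.7% and 15. A link between composition and direction was not tested. The Ctla4 region held TATAAA 40 bases after the annotated start, as do 13.6% of all promoters somewhere in the window. The Icosl region held GAAAGT on the minus strand at position -137 from the start, as do 14.3% of promoters. Among the other 4, Cd80 held TGANTCA (7.81% of promoters) and TATAAA. None of the 6 held AGNGAAAG, which is in 8.63% of promoters. A match is a description of letters and not a binding site.

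The paired ligands CD80 and CD86, which bind the same receptors, went opposite ways. Cd80 had 218 estimated counts and 5.41 TPM in naive B cells, and 1065 counts and 14.2 TPM in plasma cells, a centred ratio of 2.24, or 2.43 with no TPM added (2.22 to 2.65). Cd86 had 1704 counts and 32.7 TPM in naive B cells, and 450 counts and 5.11 TPM in plasma cells, a ratio of -1.48, or -1.65 with no TPM added (-1.80 to -1.50). Cd86 was the more abundant of the pair in naive B cells, by 6.05 times, and Cd80 in plasma cells, by 2.79 times. The shares of the main Cd80 transcripts had overlapping intervals between the libraries. Cd80-202 held 55.7% of the counts in the naive and 53.3% in the plasma library, and Cd80-201 44.3% and 42.1%. Another annotated transcript, with a coding sequence of 639 bases against 921, had 0 estimated counts in the naive and 48.0 in the plasma library. That is 4.51% of plasma counts (3.34 to 5.93%), against an exact upper limit of 1.68% in naive B cells. Cd86-001 held 94.9% of naive and 96.1% of plasma counts. Cd86-201 had 84.9 estimated counts in naive B cells and was listed at 0 in plasma cells. There 3.85% of counts (2.22 to 5.98%) fell on the short Cd86-003, against 0.137% in naive B cells. For Cd80 and Cd86 too, reads that fit several transcripts are divided by estimation, a step that the intervals do not cover. A listed 0 is thus an estimate, and a change in the use of these forms was not tested.

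The ligands of PD-1 also differed from each other. Cd274 had 3502 estimated counts and 46.7 TPM in naive B cells, and 3058 counts and 21.6 TPM in plasma cells. The centred ratio of -0.09 was not called, and its sign depends on the scaling: it was -1.08 without centring, which passes the 2-fold limit, and 0.27 on the count scale with TMM factors. Pdcd1lg2 had 608 counts and 18.2 TPM in naive B cells, and 39 counts and 0.617 TPM in plasma cells, a ratio of -2.58, or -3.85 with no TPM added (-4.35 to -3.38). Cd274 and Pdcd1lg2 are adjacent protein-coding genes on chromosome 19. Cd274 stood at 2.57 times the level of Pdcd1lg2 in the naive library, and at 35.0 times in the plasma library.

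The order of the members turned over between the libraries. In naive B cells the levels ran from Icosl through Cd274, Cd86, Pdcd1lg2, Ebi3, Cd80, Lag3, Ctla4 and Cd28 to Il10. Only the neighbours Pdcd1lg2 and Ebi3, and Lag3 and Ctla4, had overlapping count intervals there. In plasma cells the order was Ctla4, Il10, Ebi3, Lag3, Cd274, Cd80, Cd86, Cd28, Pdcd1lg2 and Icosl, and only the last 2 overlapped. Without centring, the 5 ligand genes summed to 406 TPM in the naive and 42.1 TPM in the plasma library. Icosl made up 74.6% of that sum in the naive and 1.17% in the plasma library, where Cd274 made up 51.4% and Cd80 33.9%.

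Other genes of the same families were read from 10 lists of 121 genes in all, of which 76 had at least 5 TPM in 1 library and are called measured. Of these 15 (19.7%) were called higher in plasma cells and 30 (39.5%) lower, beside 16.0% and 22.1% of all 10219 genes, whose median was -0.23. The counts and medians of single lists stand beside the same background. All 45 kept their direction without centring, with TMM factors on counts, and without immunoglobulin and mitochondrial transcripts. Without centring 10 of the 15 higher genes were still called, and with TMM factors 23 of the 30 lower genes were. Lower calls in the lists numbered 45 without centring.

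Among other members of the B7 and CD28 families 3 of 7 reached 5 TPM, 1 higher and 2 lower, with a median of -1.07. Vsir, listed in the files as 4632428N05Rik, encodes the inhibitory ligand VISTA and was higher by 2.22 (21.5 TPM in the naive and 51.7 TPM in the plasma library). Btla, an inhibitory receptor of B and T cells, was lower, at -4.66 (553 and 10.0 TPM), as was its ligand gene Tnfrsf14 at -1.07, which became -0.74 and lost its call with TMM factors. The genes for the receptors of ICOSL and the PD-1 ligands were below 5 TPM in both libraries: Icos was at 1.10 and 0.0158 TPM, and Pdcd1, which encodes PD-1, at 0.583 and 3.64 TPM. Pdcd1 had 23 and 271 estimated counts, a ratio of 2.54 that was not called at this level. Higher calls in this list numbered 2 with TMM factors, without a level filter, and without immunoglobulin and mitochondrial transcripts. Of 16 other co-inhibitory receptors and ligands 7 were measured, 3 higher and 3 lower, with a median of 0.68. Tigit, an inhibitory receptor best known from T and NK cells, was higher by 4.25 (4.87 and 55.2 TPM). Ceacam1 was lower at -3.61, Sirpa at -3.49 and Cd200 at -3.39. The remaining higher genes, named after their values were seen, were Lgals9 at 1.59, and Pvr, which encodes a ligand of TIGIT, at 5.27 and 6.80 TPM. Both fall under the 2-fold limit without centring.

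Co-stimulatory genes of the TNF family had 4 of 13 members measured, with 0 higher, 2 lower and a median of -1.26. Cd40, the receptor for T cell help, was lower at -1.63 (156 and 24.7 TPM), and Cd27 at -1.71 (7.88 and 0.366 TPM), though Cd27 was not called with TMM factors. Of 12 other cytokines 4 were measured and these 4 were lower. Lta was at -4.71 (75.5 and 0.473 TPM), Ltb at -2.68 (600 and 46.2 TPM), Tnf at -2.62 and Tgfb1 at -1.65. The first 2 encode lymphotoxins, which organise lymphoid tissue. Il6, named after its values were seen, lay below 5 TPM and went the other way, with 2 estimated counts (0.0918 TPM) in the naive library and 154 (3.74 TPM) in the plasma library. In this list 2 genes were called higher with no level filter, and 1 without immunoglobulin and mitochondrial transcripts. Of 8 cytokine genes of the IL-10 and IL-12 families only Il12a, described above, reached 5 TPM.

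Il10ra was lower in plasma cells, while other genes read for IL-10 and IL-12 family reception and signalling differed in both directions or were not called. Of 14 receptor and signalling genes of the IL-10 and IL-12 families 11 were measured, 2 higher and 4 lower, with a median of -0.48. Il10ra, the chain that binds IL-10, was lower at -3.06 (145 and 7.86 TPM), and its partner Il10rb was at -0.93 (123 and 31.8 TPM), short of the 2-fold limit. Il27ra was lower at -3.71 (66.9 and 1.63 TPM). Socs3, a feedback inhibitor of cytokine signalling, was higher by 2.85 (8.80 and 34.7 TPM). Il6st, which encodes the shared receptor chain gp130, was higher by 1.75, or 0.76 without centring. The remaining lower genes, named after their values were seen, were the kinase genes Jak1 at -1.59 (252 and 41.5 TPM) and Jak2 at -1.08. Jak2 lost its call with TMM factors. Lower calls in this list numbered 7 without centring and 3 with TMM factors.

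Of 14 known transcriptional regulators of Il10, 12 were measured, 5 higher and 3 lower, with a median of 0.31. Prdm1, which encodes Blimp-1, was higher by 7.23, Nfil3 by 4.15 (1.23 and 19.0 TPM), Junb by 3.03 and Irf4 by 2.17. Prdm1 and Irf4 are also among the plasma cell markers counted above, so their calls are not particular to Il10. The 3 lower genes, named after their values were seen, were Hif1a at -1.35, Ahr at -1.34 and Sp1 at -1.25. Maf, also named after its values were seen, went down too (3.36 and 0.0192 TPM). It lay below 5 TPM in both libraries, so no call was made. Lower calls in this list numbered 6 without centring and 5 without immunoglobulin and mitochondrial transcripts. Of 10 measured genes for CTLA-4 traffic and ligand shedding 9 were not called, with a median of 0.03. The exception was Ap1m1, which encodes an adaptor subunit, at -1.61. These counts depend on the scaling: 5 genes were called lower without centring and 3 without immunoglobulin and mitochondrial transcripts, and 2 were called higher with TMM factors. Of 13 cytosolic signalling genes of CD28 and CTLA-4, 12 were measured, 0 higher and 5 lower, with a median of -0.52. Grap2, an adaptor, was at -4.53 (115 and 1.53 TPM), the phosphatase gene Ptpn6 at -2.88 (944 and 63.7 TPM), Lcp2 at -1.86 and Pik3r1 at -1.37. Of 13 surface genes linked to regulatory B cells 12 were measured, 4 higher and 5 lower, with a median of 0.64. Lgals1 was higher by 2.90 and Cd44 by 2.10. Cr2 was lower at -3.61, and Fcer2a at -6.11, and both are also among the naive B cell markers counted above. The remaining called genes, named after their values were seen, were Cd9 at 1.86, Cd24a at 1.46, Cd38 at -1.85, Cd5 at -1.58 and Cd1d1 at -1.41. Cd9 and Cd24a were not called without centring, nor was Cd5 with TMM factors. CD23, the product of Fcer2a, was the marker used in the naive sort.

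**Figure D4:**
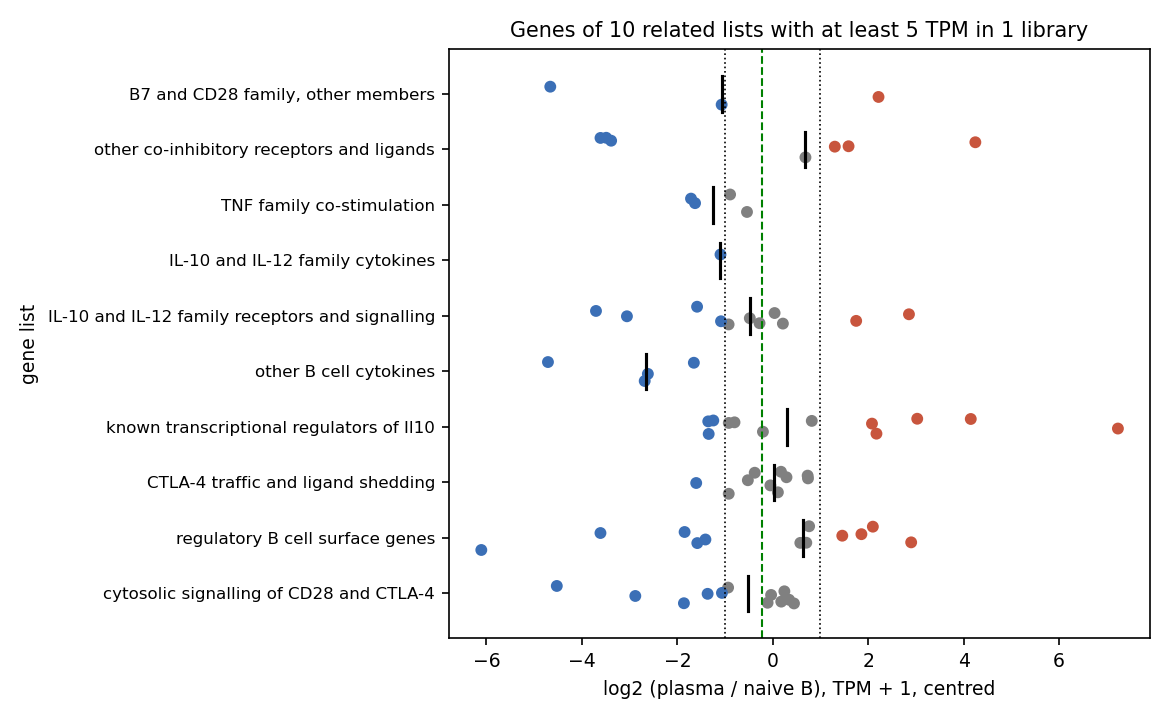
Centred log2 ratio of plasma over naive B TPM + 1 for the measured genes of 10 related lists, 1 point per gene, red for called higher, blue for called lower and grey for not called. Black bars mark each list's median, the green dashed line the median of all 10219 genes at -0.23, and dotted lines the 2-fold limits. Other B cell cytokines lie lowest, with a median of -2.65 over the 4 of 12 genes that reached 5 TPM. Of these, Lta and Tnf reached it in the naive library only.

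Ctla4, Cd28, Lag3 and Tigit are best known from T cells, so T cell markers were read in the same libraries. The 16 markers summed to 426 TPM in the naive and 58.1 TPM in the plasma library. Most of this was Cd2, which mouse B cells also carry, at 297 and 49.7 TPM. Without Cd2 and Lck, set apart after their values were seen, the other 14 summed to 83.0 and 5.87 TPM. All 14 were lower in TPM, which is not centred, in the plasma library, where the highest was Lat at 1.61 TPM. On the centred ratio, 9 of the 16 markers reached 5 TPM. Of these 7 were called lower and 2, Lat and Cd247, were not called. Cd3e, Trbc1 and Trbc2 were listed at 0 in plasma cells, in which Ctla4 stood at 127 TPM and Lag3 at 50.7 TPM. In the naive library Cd28, Ctla4 and Lag3 were at 1.46 to 3.44 TPM, where Cd3e was at 2.65 TPM. The part of T cell RNA in those naive values was not tested.

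NK cell markers summed to 18.3 TPM in the naive and 0.972 TPM in the plasma library, with 4 of 8 at 0 in plasma cells (Ncr1, Klrb1c, Klrk1 and Gzma). Markers of monocytes, macrophages and neutrophils, cells that can make IL-10 and carry PD-L2 and CD86, summed to 159 and 2.49 TPM. The highest of these 14 in the naive library was Lyz2, at 55.2 TPM, and in the plasma library Itgam, at 1.03 TPM. Dendritic cell markers summed to 185 and 46.3 TPM, mostly Ccr7 (170 TPM) in naive B cells and Flt3 (30.2 TPM) in plasma cells. Clec9a and Cd209a were listed at 0 in plasma cells. Erythroid markers summed to 67.0 and 0.184 TPM, and basophil and mast cell markers to 1.98 and 0.0356 TPM. In TPM, which is not centred, the summed markers of these other cells were thus lower in plasma cells, as were Icosl, Pdcd1lg2 and Cd86. The part of these other cells in the ratios of those genes was not tested. Fewer cells of a type and less RNA per cell cannot be told apart in such bulk libraries.

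**Figure D5:**
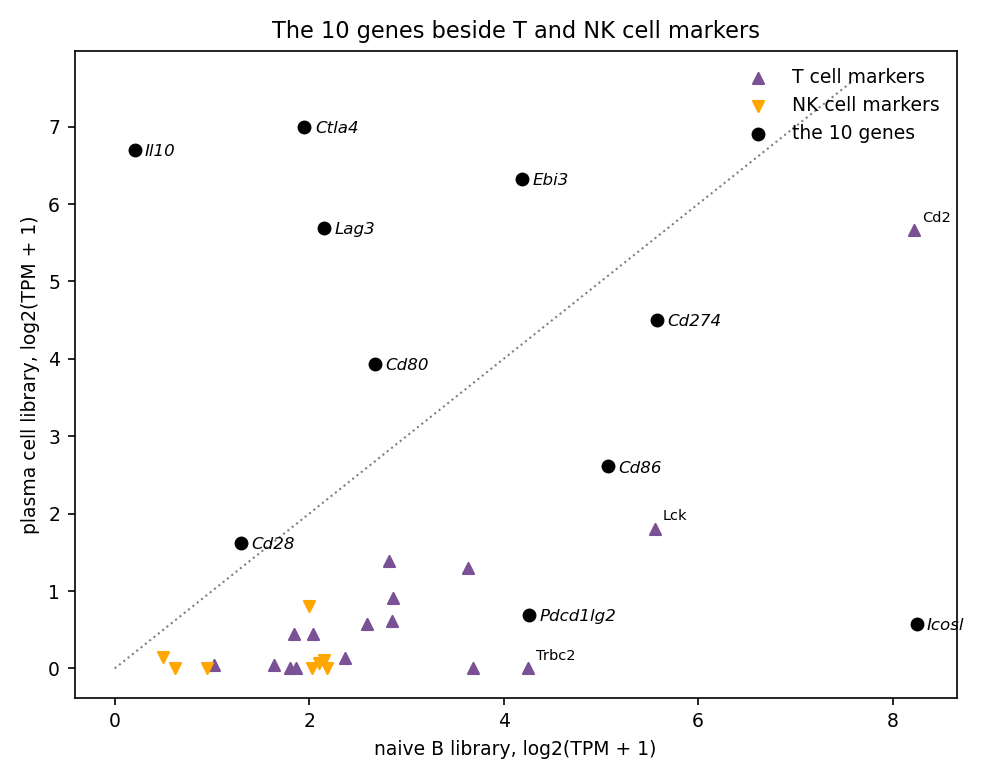
Level in the plasma cell library against the naive B library, both as log2(TPM + 1), for the 10 members (black), 16 T cell markers (purple) and 8 NK cell markers (orange), with a dotted line of equal level. Ctla4, Lag3 and Il10 lie high in the plasma library, where the T cell markers other than Cd2 and Lck are all below 2 TPM.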

How the data were processed

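RNA-seq of 1 naive B and 1 plasma cell library was used. The RNA was prepared with poly(A) selection and a dUTP strand-marking protocol, per the labels' protocols. Each deposited table lists, per the file headers, a transcript's length, its effective length, the authors' estimated count and its TPM, made with kallisto per the submitters' processing notes. No kallisto version is stated in the sources used here. The files on mm9 (peaks and contacts) were not used, because the annotation used here is of GRCm38 and no coordinates were converted.

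Values of 61112 transcripts were summed to 26599 genes by gene ID. All 199 list entries were matched, 7 of them by gene ID from the GENCODE M21 table. Genes were called past a 2-fold centred ratio where at least 1 library reached 5 TPM. Poisson and Clopper-Pearson 95% intervals used rounded estimated counts (scipy 1.17.1), and TMM factors came from edgeR 4.0.16 (1.28 and 0.783). Gene calls and Poisson intervals were tested on simulated data. For the calls, both simulated libraries were drawn from the naive profile, without an immunoglobulin shift like the one here. The simulation therefore does not test calls or centring under that shift.

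Each group has 1 library, so no difference was tested. The members and lists were chosen with earlier results of these data known. Named genes were the members, up to 4 called genes with the largest ratio per list, receptors and partners of members, marker extremes, and the 3 genes nearest to Il10, Ctla4 and Icosl in both log2 levels. Pseudocounts, centring, scale, level filter, coding transcripts and fold limit were varied.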

Additional observations from a re-analysis of the deposited data

How the results depend on the processing

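No paired analysis was possible because each group has 1 library, and for the same reason no replicate could be left out. No member ratio changed sign among the 8 called members under 6 settings of scale, pseudocount and transcripts. The ratio of Il10 ranged from 5.23 to 9.71, Ctla4 from 4.91 to 6.45, Lag3 from 3.54 to 4.87, Ebi3 from 2.14 to 3.45, Cd80 from 1.25 to 2.52, Cd86 from -2.47 to -1.06, Pdcd1lg2 from -3.64 to -1.20 and Icosl from -7.97 to -4.97. Members called higher numbered 4 to 6 and lower 2 to 4: a level of 20 TPM left out Cd80 and Pdcd1lg2, a 4-fold limit left out Cd86, Cd28 was added without a level filter or on the count scale with TMM, and Cd274 was added to the lower genes without centring.

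The counts over all genes moved more. Against 1634 higher genes there were 792 without centring, 2534 with TMM on counts, 3680 without a level filter, 1042 without immunoglobulin and mitochondrial transcripts and 785 at 4-fold. Against 2257 lower genes there were 1239 with a pseudocount of 5 TPM, 5890 without centring, 4425 without immunoglobulin and mitochondrial transcripts and 548 at 4-fold. In the 10 lists the 15 higher genes became 25 without a level filter and the 30 lower genes 13 at 4-fold and 45 without centring. Of 180 counts of single lists 140 stayed within 1.5 times. Depth limits the naive value of Il10, which rests on 4 counts.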
